A study of Homo sapiens with 24 samples.

Results

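The rows described here cover 5 loci: MTHFD2 and SHMT2, which encode enzymes of the mitochondrial folate pathway, SLC1A5, which encodes a glutamine transporter, ATF5, which encodes a stress-response transcription factor, and VLDLR, which encodes a receptor for reelin. Together with the rows whose exons lie on the other strand of 4 of these loci they make 10 of the 61248 features in the count tables. The 10 rows were chosen by name, with the difference between BRAT1 knockout and control lines at day 14 already known, so their values in that comparison are given as a description, with no p-value, and counts of calls among them are no independent evidence. The libraries came from H7, a human embryonic stem cell line, as 2 lines with BRAT1 knocked out (KO lines) and 2 control lines, and all 4 lines carry the H7 background. Each line was sampled at day 14, as neural progenitors after ventral differentiation, and at day 0, as undifferentiated stem cells, as 3 biological replicates, A, B and C, so that each genotype and day has 6 libraries and the whole set 24. Whether a line is 1 clone is not given in the sources used here. BRAT1 is known as a partner of the ATM kinase and of Integrator, a complex that cleaves nascent RNA.

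Serine is the main source of one-carbon units in proliferating cells. In mitochondria, SHMT2 splits serine into glycine and a one-carbon group carried by tetrahydrofolate, and MTHFD2 oxidises that group towards formate, which leaves the mitochondrion and feeds purine and thymidylate synthesis. ATF4, a transcription factor whose translation increases when eIF2 alpha is phosphorylated, is known to activate genes of serine, glycine and folate metabolism and amino acid uptake, and MTHFD2, SHMT2, SLC1A5, ATF5 and VLDLR have each been reported among its targets.

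Library totals ranged from 2228736 to 3726227 counts at day 14 and from 1407832 to 2143871 at day 0, and 20769 to 25247 features had at least 1 count at day 14, against 9299 to 15116 at day 0. Levels are given as counts per 1000000 counts of a library (CPM), a scale that is not corrected for the length of a row, so levels of different rows are not compared. BRAT1 averaged 46.2 ± 38.0 CPM in KO lines and 252 ± 45.9 CPM in control lines at day 14 (SD, n = 6 each), while at day 0 it was at most 6.31 CPM in KO and 2.91 CPM in control libraries. At day 14 BRAT1 stood at 71.2 to 86.8 CPM in KO line 2 and at 7.66 to 16.9 CPM in KO line 1. At day 0 the BRAT1 row had 0 counts in 4 of the 6 libraries of each genotype. It therefore does not compare the genotypes at day 0, and such low counts do not show that BRAT1 RNA was absent. Of the 9 progenitor marker rows tested under their own names, 7 were higher and 0 lower in KO than in control lines at day 14 by edgeR. Of all features tested, 11% were higher and 10.7% lower. The median log2 fold change of the own-name rows was 1.78 beside 0.07 over all features. Of the 6 tested rows opposite the progenitor markers, 2 were higher and 0 lower, with a median of -0.25. Progenitor markers summed over their own and opposite rows reached 10235 to 14182 CPM in KO and 11982 to 15302 CPM in control libraries at day 14, against 344 to 1245 CPM in KO and 391 to 1076 CPM in control libraries at day 0. The summed pluripotency markers were higher at day 0, with 676 to 1079 CPM in KO and 654 to 977 CPM in control libraries, than at day 14, with 78.4 to 165 CPM in KO and 68.6 to 137 CPM in control libraries.

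The counts of the SHMT2 and SLC1A5 pairs stood on average mostly under the name of the opposite strand, as did those of the MTHFD2 pair except in KO lines at day 14. Those of the VLDLR pair did so in control lines at day 14 alone, and ATF5 held more counts than the NUP62 row opposite it. Among 2379 antisense genes set beside the overlapping coding gene, 1490, or 62.6%, held more counts than their partner. The strand setting used in counting is not given in the sources used here, so whether a count under an opposite-strand name came from that RNA or from the coding gene cannot be told apart. MTHFD2 lies at chr2:74198562-74217565 on the plus strand (GRCh38, GENCODE 29), where 295 exon bases are shared with ENSG00000264324, annotated as protein coding at chr2:74211604-74363377 on the minus strand. The 3′ untranslated end of MTHFD2 shares a further 1324 exon bases with SLC4A5, which encodes a sodium bicarbonate cotransporter and lies at chr2:74216242-74343414 on the minus strand. SHMT2 lies at chr12:57229327-57234935 on the plus strand and shares 427 exon bases with the antisense gene ENSG00000276727 at chr12:57229498-57230198. SLC1A5 lies at chr19:46774883-46788594 on the minus strand and shares 780 exon bases with the antisense gene ENSG00000275719 at chr19:46787815-46789043. VLDLR lies at chr9:2621834-2660053 on the plus strand and shares 738 exon bases with VLDLR-AS1 at chr9:2421597-2643359. ATF5 lies at chr19:49928702-49933935 on the plus strand, and the exons of NUP62, which encodes a nuclear pore protein, lie opposite 626 of its exon bases.

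The shared stretches are shown because an RNA copied from these bases can be counted under either of the 2 names of a pair, according to the strand assigned to its reads. In each pair below both sequences are written 5′ to 3′ from the GENCODE 29 transcripts and each is the reverse complement of the other. The last sequence is from RefSeq (GRCh38.p14), and its capitals mark a motif described after it.
MTHFD2, chr2:74211769-74211798, plus strand: gatcaaggaaggagcagcagtcattgatgt
ENSG00000264324, same bases, minus strand: acatcaatgactgctgctccttccttgatc
SHMT2, chr12:57229780-57229809, plus strand: tgctgtacttctctttgttttgggcggctc
ENSG00000276727, same bases, minus strand: gagccgcccaaaacaaagagaagtacagca
SLC1A5, chr19:46787860-46787919, minus strand: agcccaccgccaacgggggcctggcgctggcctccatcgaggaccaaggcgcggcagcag
ENSG00000275719, same bases, plus strand: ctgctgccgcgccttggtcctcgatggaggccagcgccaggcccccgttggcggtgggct
VLDLR, chr9:2643230-2643289, plus strand: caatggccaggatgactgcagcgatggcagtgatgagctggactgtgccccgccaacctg
VLDLR-AS1, same bases, minus strand: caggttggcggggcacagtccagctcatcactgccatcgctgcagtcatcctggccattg
SLC1A5, before the third annotated start, chr19:46784893-46784922, minus strand: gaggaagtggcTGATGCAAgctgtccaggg

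The overlap makes up different parts of the opposite rows. It is 63.5% of the exon bases of ENSG00000275719 and 60.9% of those of ENSG00000276727, but 16.5% of those of SLC4A5, 12.3% of those of VLDLR-AS1 and 5.83% of those of ENSG00000264324. The tables give 1 count per row, so where in a row its reads fell is not known. Promoter windows of 250 bases before an annotated start (RefSeq, GRCh38.p14) were at hand for 6 of the 10 rows. They were searched on both strands for TGATGNAA, the C/EBP-ATF element at which ATF4 is known to bind, and for TGACGTCA, the cyclic AMP response element. Rows with several annotated starts had more than 1 window searched. The one match was TGATGCAA, 97 bases before the third start of SLC1A5, shown in capitals above. The window that holds it, chr19:46784815-46785064, lies within the span of SLC1A5 and includes 91 of its exon bases. Of 35116 promoter windows of that length, 3.14% held TGATGNAA and 1.65% held TGACGTCA.

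At day 14 the rows opposite MTHFD2, SHMT2, SLC1A5 and VLDLR were lower in KO than in control lines in every library, and the rows under the coding names were not separated in this way. Of the 10 rows, 6 were past an adjusted p of 0.05 on the lower side and 0 on the higher side (edgeR quasi-likelihood test, Benjamini-Hochberg over 11408 features), beside 10.7% of all features tested that were lower and 11% that were higher. In 5 of the 10 rows every KO library was below every control library, beside 6% of all features tested. These 2 counts come from the comparison in view when the rows were chosen. ATF5 lost its place among the 6 in 15 of 24 alternatives, VLDLR-AS1 with all 24 libraries in 1 fit and SLC4A5 with the share of counts under coding names as a term. SHMT2, which was outside the 6, was past the threshold in 5 of 24 alternatives. In bulk RNA, fewer cells of a type and less RNA per cell cannot be told apart.

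At the MTHFD2 locus the counts stood mostly under the opposite strand in control lines. ENSG00000264324 had at day 14 11.3, 20.3 and 24.6 CPM in KO libraries (lowest, median and highest of 6), against 81.6, 130.0 and 177 CPM in control libraries. The highest KO library lay below the lowest control library, and the log2 fold change was -2.81 (SE 0.22). SLC4A5 showed the same order, with 1.25, 3.12 and 7.0 CPM in KO libraries, against 7.64, 12.4 and 20.2 CPM in control libraries. Its groups were separate as well, and its log2 fold change was -1.87 (SE 0.42). SLC4A5 lies within the span of ENSG00000264324 on the same strand, so these 2 rows are not separate loci. The row named MTHFD2 itself had 21.9, 39.8 and 63.3 CPM in KO libraries, against 28.1, 38.1 and 50.7 CPM in control libraries. Its groups overlapped, 2 KO libraries lay below and 2 above all control libraries, and the log2 fold change was 0.09 (SE 0.24).

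SHMT2 itself had few counts. At day 14 it had 0, 1.95 and 10.7 CPM in KO libraries, against 4.09, 7.49 and 32.9 CPM in control libraries. The groups overlapped, although 5 of the 6 KO libraries were below every control library, and the log2 fold change was -1.95 (SE 0.80). The opposite row ENSG00000276727 had 4.03, 8.59 and 11.9 CPM in KO libraries, against 25.0, 32.8 and 45.8 CPM in control libraries. All KO libraries were below all control libraries in that row, with a log2 fold change of -2.09 (SE 0.30).

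SLC1A5, known as ASCT2, carries glutamine and other neutral amino acids into the cell. At day 14 its own row had 15.6, 22.3 and 31.5 CPM in KO libraries, against 22.0, 25.1 and 31.8 CPM in control libraries. These ranges overlapped over most of their length, and the log2 fold change was -0.24 (SE 0.23). The opposite row ENSG00000275719 had 42.8, 71.1 and 103 CPM in KO libraries at day 14, against 139, 173 and 253 CPM in control libraries. Its groups did not overlap, and the log2 fold change was -1.38 (SE 0.17).

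VLDLR binds reelin together with the related receptor LRP8 and guides the placement of migrating neurons. Its own row at day 14 had 11.8, 17.1 and 25.2 CPM in KO libraries, against 19.5, 25.6 and 29.1 CPM in control libraries. Of the 6 KO libraries 5 lay below all control libraries, and the log2 fold change was -0.57 (SE 0.25). VLDLR-AS1 had 6.68, 10.3 and 12.2 CPM in KO libraries, against 20.9, 27.8 and 39.0 CPM in control libraries, with no overlap and a log2 fold change of -1.58 (SE 0.27).

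ATF5 is a basic leucine zipper factor that is itself produced under stress and is known in neural progenitors as a factor that holds back differentiation. It had 90.3, 95.2 and 105 CPM in KO libraries at day 14, against 97.2, 129 and 137 CPM in control libraries. Control line 1 replicate A, at 97.2 CPM, was the one control library within the KO range, and the log2 fold change was -0.39 (SE 0.14). NUP62, whose exons lie opposite ATF5 and which is named here for its position, had 2.23, 6.63 and 12.6 CPM in KO libraries, against 1.35, 7.53 and 11.2 CPM in control libraries. The 2 genotypes overlapped over nearly the whole range of NUP62.

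**Figure D1:**
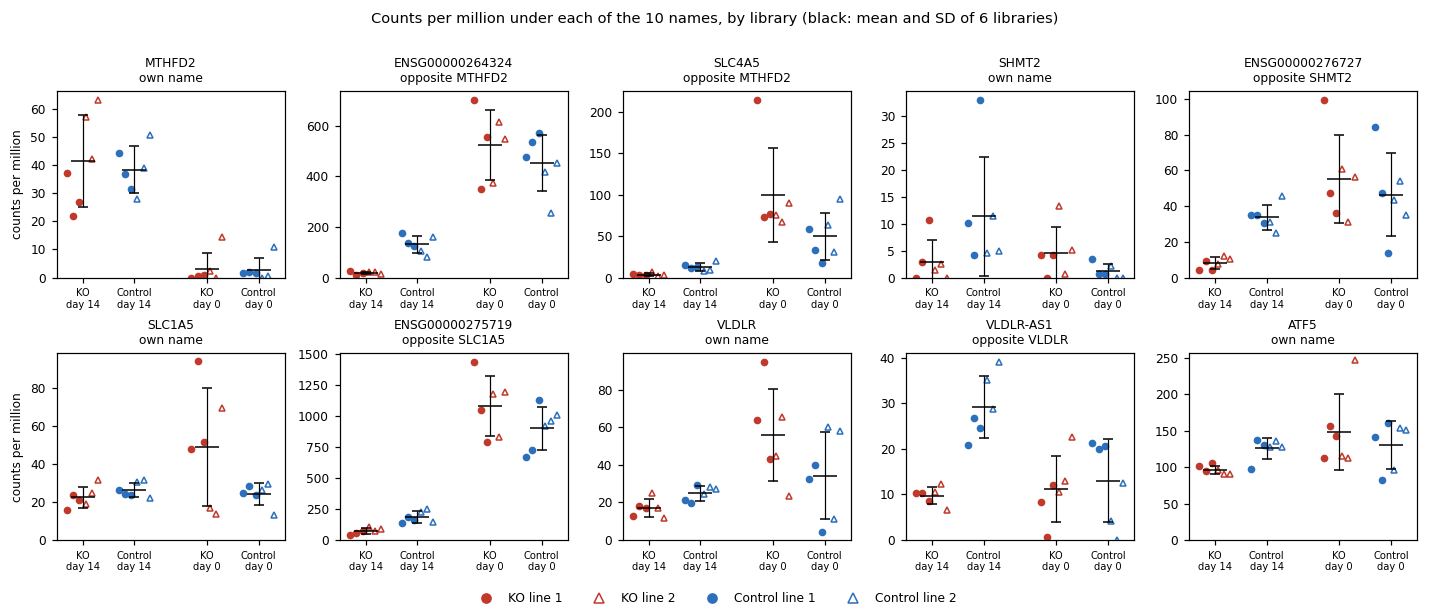
Level in CPM (vertical axis, a separate linear scale in each panel) under each of the 10 names in the 24 libraries, by genotype and day, with filled circles for line 1, open triangles for line 2 and black bars for the mean and SD of 6 libraries. The 5 opposite-strand rows are lower in all KO than in all control libraries at day 14 and overlap at day 0.

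With the rows of a locus added together, whatever their strand, all 5 loci had lower fitted values in KO lines at day 14. Such a sum also takes in counts from exons of the opposite rows that lie outside the coding gene. The log2 fold change of the sum was -1.53 (SE 0.19) at the MTHFD2 locus and -2.06 (SE 0.27) at the SHMT2 locus. It was -1.18 (SE 0.16) at the SLC1A5 locus, -1.03 (SE 0.20) at the VLDLR locus and -0.39 (SE 0.14) for ATF5, which has 1 row. The locus sum of MTHFD2 was therefore lower in KO lines, while its own row, at 0.09 with an interval from -0.40 to 0.57, had no clear direction.

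The split of counts between the 2 strands also differed. Of the counts under MTHFD2 and ENSG00000264324 together, the MTHFD2 row held 67.4 ± 8.52% in KO lines and 23.2 ± 4.73% in control lines at day 14 (SD, n = 6 each). The lowest KO library, at 57.8%, was above the highest control library, at 32.4%. The SLC1A5 row held 24.3 ± 4.87% of its pair in KO lines and 12.7 ± 1.73% in control lines. The VLDLR row held 63.0 ± 5.61% in KO lines and 46.3 ± 5.76% in control lines. The SHMT2 row held 21.5 ± 26.9% in KO lines and 23.1 ± 16.3% in control lines, a difference smaller than the spread in either group. At day 0 the MTHFD2 row held 0.591 ± 1.00% in KO lines and 0.604 ± 0.879% in control lines. The means of the other pairs at day 0 were higher in KO lines, but each by less than the SD in KO lines. The SHMT2 row held 7.08 ± 6.61% in KO lines and 2.31 ± 2.07% in control lines, and the SLC1A5 row 4.33 ± 2.72% in KO lines and 2.73 ± 0.941% in control lines. The VLDLR row held 80.2 ± 16.3% in KO lines and 69.9 ± 30.3% in control lines.

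**Figure D2:**
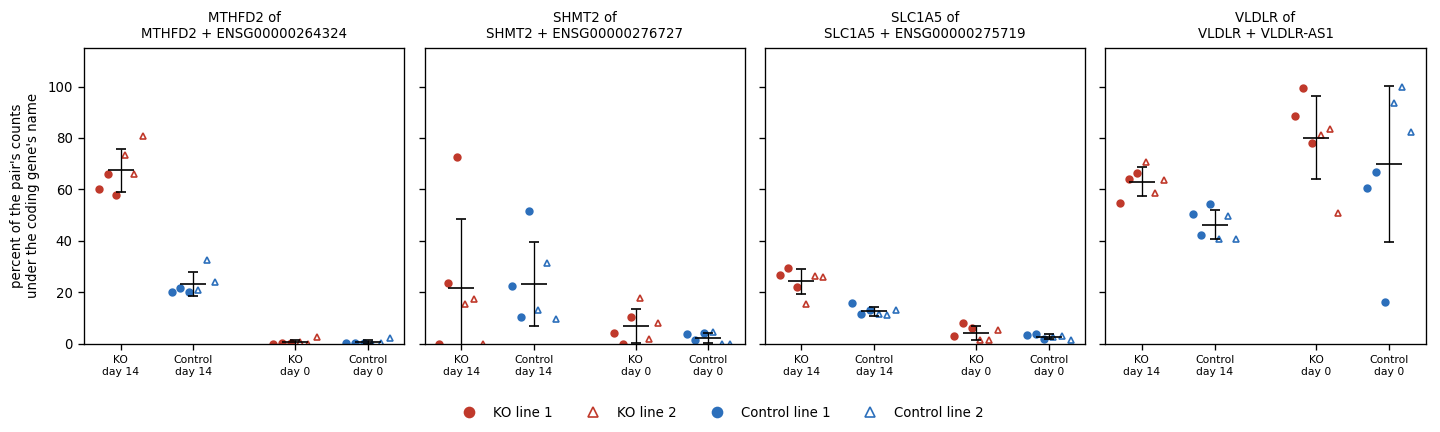
Percent of the counts of each pair of rows that stand under the coding gene's name (vertical axis), by library, with filled circles for line 1, open triangles for line 2 and black bars for the mean and SD of 6 libraries. For MTHFD2 the 6 KO libraries at day 14 lie between 57.8% and 80.9% and the 6 control libraries between 20.1% and 32.4%.

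A similar measure over the whole library was higher on average in KO than in control lines at day 14, though the libraries of the genotypes overlapped. It was taken over 683 pairs outside the 10 rows, with at least 20 counts per library on average under the antisense name and less than 0.1 of that under the coding name. The counts under the coding names came to 3.08 ± 0.777% of those under the antisense names in KO lines and 2.14 ± 0.265% in control lines at day 14, against 0.846 ± 0.0678% in KO lines and 0.829 ± 0.148% in control lines at day 0 (SD, n = 6 each). At day 14, replicates A and B of KO line 1, at 2.29% and 2.21%, lay within the control range of 1.67% to 2.44%. The other KO libraries lay above it, at 2.90% to 4.02%. With this percent as a term in the fit, the day 14 log2 fold change was -2.64 for ENSG00000264324, -1.65 for ENSG00000275719, -1.83 for ENSG00000276727 and -1.15 for VLDLR-AS1. SLC4A5, at -1.47, and ATF5, at -0.27, were no longer past the threshold with that term. Among markers of other cell types, the 10 summed neuron marker rows stood at 99.3 to 259 CPM in KO and 43.1 to 93.0 CPM in control libraries at day 14. The 10 neural crest rows stood at 91.9 to 124 CPM in KO and 192 to 244 CPM in control libraries, and the 13 mesenchyme rows at 108 to 163 CPM in KO and 283 to 423 CPM in control libraries. In stem cells at day 0 the mesenchyme rows stood higher, at 2000 to 2887 CPM in KO and 1446 to 2376 CPM in control libraries. Their sum therefore does not stand for mesenchyme cells alone. At day 14, 0 of 4 tested own-name mesenchyme rows and 3 of 3 opposite rows were lower in KO lines, beside 10.7% of all features. The part of these markers in the differences of the 10 rows was not tested.

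At day 0, in libraries that the choice of rows did not use, no difference between KO and control lines passed the test in any of the 8 rows that could be tested, and MTHFD2 and SHMT2 had too few counts. Of the 8 rows, 1 had an unadjusted p below 0.05, and 0 were called by DESeq2. None of 4832 features passed the edgeR quasi-likelihood test at day 0, which is 0% on the higher and 0% on the lower side, with 99 features at an unadjusted p under 0.05. DESeq2 called 0 features as well, with 868 at an unadjusted p under 0.05. In simulated counts the day 0 edgeR fit found 6.7% of 2-fold and 44.8% of 4-fold changes, against 37.3% and 84.3% at day 14. The lack of calls at day 0 therefore does not show that differences were absent. Every KO library lay below every control library in 0 of the 8 rows, beside 0.0828% of all features tested.

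ENSG00000264324 had 350, 552 and 702 CPM in KO libraries at day 0, against 254, 465 and 571 CPM in control libraries. Its log2 fold change was 0.18, with a 95% interval from -0.31 to 0.68 and an adjusted p of 1.00 by the edgeR quasi-likelihood test. That interval does not reach the -2.81 seen at day 14. ENSG00000275719 had 795, 1116 and 1438 CPM in KO libraries, against 668, 941 and 1133 CPM in control libraries, with a log2 fold change of 0.24 and an interval from -0.20 to 0.67. ENSG00000276727 had 31.4, 51.6 and 99.6 CPM in KO libraries, against 13.7, 45.6 and 84.5 CPM in control libraries, with a log2 fold change of 0.21 and an interval from -0.72 to 1.14. In these 3 rows the KO and control libraries overlapped at day 0. SLC4A5 had 67.2, 76.0 and 215 CPM in KO libraries, against 17.7, 46.1 and 95.4 CPM in control libraries. Its log2 fold change of 0.98, with an interval from 0.08 to 1.87, was positive, and its adjusted p was 1.00 by the same test.

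The rows with few counts at day 0 had wide intervals. VLDLR-AS1 had 0.574, 11.3 and 22.7 CPM in KO libraries, against 0, 16.2 and 21.4 CPM in control libraries, and the interval of its log2 fold change ran from -2.18 to 1.63. VLDLR had 23.4, 54.2 and 94.6 CPM in KO libraries, against 4.0, 36.2 and 60.1 CPM in control libraries, with an interval from -0.46 to 1.82. The day 14 value of VLDLR-AS1, -1.58, was within its day 0 interval, and that of VLDLR, -0.57, was outside its own. The day 14 interval of VLDLR ran from -1.07 to -0.06. Fitted directly, the change of the KO effect between the days was -1.21 for VLDLR, with an interval from -2.52 to 0.09. A difference between the days was therefore not shown for VLDLR. SLC1A5 had 13.4, 49.7 and 94.1 CPM in KO libraries, against 13.1, 25.5 and 29.2 CPM in control libraries, with a log2 fold change of 0.99 and an interval from -0.08 to 2.06. ATF5 had 112, 129 and 248 CPM in KO libraries, against 81.7, 146 and 161 CPM in control libraries, with a log2 fold change of 0.15 and an interval from -0.46 to 0.75. The adjusted p of all 4 was 1.00 by the edgeR quasi-likelihood test. MTHFD2 had 31 counts over the 6 KO libraries and 26 over the 6 control libraries, and SHMT2 had 52 over the KO and 13 over the control libraries.

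**Figure D3:**
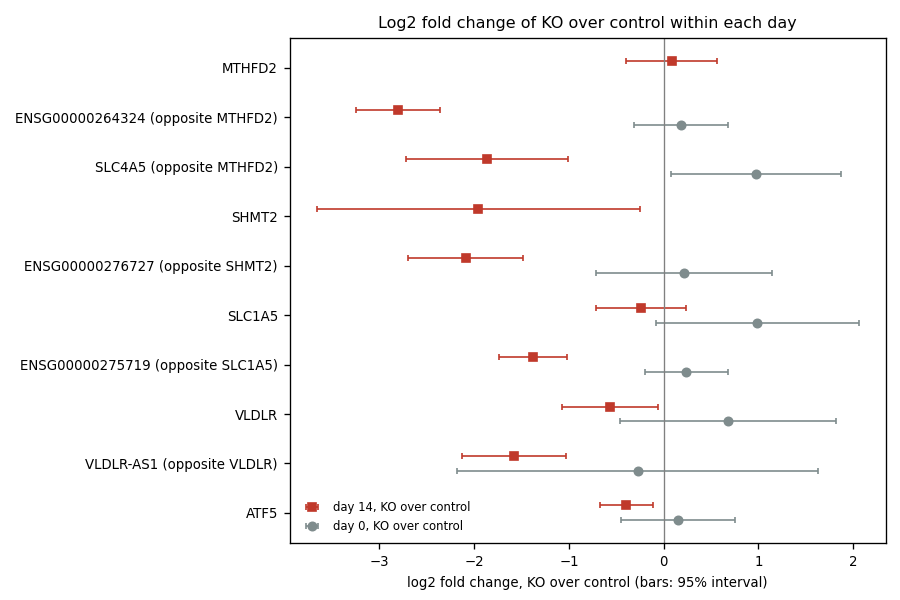
Log2 fold change of KO over control lines (horizontal axis) for each of the 10 rows at day 14 (squares) and day 0 (circles), with bars for the 95% interval of the fit. The opposite-strand rows lie between -2.81 and -1.38 at day 14 and between -0.27 and 0.98 at day 0; MTHFD2 and SHMT2 have no day 0 value because they did not pass the filter on low counts.

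The change of the KO effect between the days, which contains the day 14 comparison and is given as a description, was -2.98 (SE 0.34) on the log2 scale for ENSG00000264324. It was -2.82 (SE 0.60) for SLC4A5, -2.25 (SE 0.59) for ENSG00000276727, -1.63 (SE 0.26) for ENSG00000275719 and -1.30 (SE 0.94) for VLDLR-AS1. Under the coding names it was -3.85 (SE 1.46) for SHMT2, -1.21 (SE 0.64) for VLDLR and -1.19 (SE 0.58) for SLC1A5. For ATF5 it was -0.56 (SE 0.31) and for MTHFD2 -0.10 (SE 1.10), so the change was not confined to the opposite-strand rows. Past the threshold were 4 of the 10 rows on the lower side, beside 0.902% of all features that were lower and 0.565% that were higher. VLDLR-AS1 and the coding names were not among the 4. ENSG00000276727 was past the threshold in 11 of 37 alternatives. Without the day 14 libraries of KO line 1, 1 of the 10 rows was past the threshold, and 2 were without those of KO line 2, control line 1 or control line 2. The count over all features, 161 with all libraries, was 14 without KO line 1, 63 without KO line 2, 32 without control line 1 and 19 without control line 2 at day 14. Under RLE scaling the median over all features of this change was 0.11, against -0.07 here.

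Between day 14 and day 0 the rows differed in both directions. Comparisons of day 14 with day 0 share the day 14 libraries with the comparison in view when the rows were chosen, and both genotypes are given as values with their calls and no p. In KO lines 1 of the 10 rows was higher at day 14 and 7 were lower, beside 29.8% of all features that were higher and 16.5% that were lower (edgeR, 10971 features). In control lines 2 rows were higher and 5 were lower, beside 28.4% of all features that were higher and 14.4% that were lower. With DESeq2 or RLE scaling 3 of the 10 rows were lower in control lines. Over all features the median log2 change was 0.65 in KO and 0.60 in control lines under the TMM scaling used here, and 1.04 in KO and 0.83 in control lines under RLE scaling, so the values of single rows are to be read against those medians.

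MTHFD2 rose in both genotypes. In KO lines it had 41.5 ± 16.4 CPM at day 14 and 3.07 ± 5.68 CPM at day 0, and in control lines 38.5 ± 8.28 CPM at day 14 and 2.83 ± 4.10 CPM at day 0 (SD, n = 6 each). The log2 change was 3.22 (SE 0.83) in KO and 3.32 (SE 0.84) in control lines, with the caveat that the day 0 level rests on 31 and 26 counts. The opposite row ENSG00000264324 fell in both genotypes. It had 18.8 ± 4.85 CPM at day 14 and 524 ± 137 CPM at day 0 in KO lines, a log2 change of -5.30 (SE 0.29). In control lines it had 131 ± 34.9 CPM at day 14 and 451 ± 111 CPM at day 0, a log2 change of -2.33 (SE 0.25). With the rows added together the MTHFD2 locus fell by 3.81 in KO and by 2.01 in control lines on the log2 scale, the opposite direction from the MTHFD2 row alone.

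The other opposite-strand rows fell as well, except VLDLR-AS1. ENSG00000275719 changed by -4.44 (SE 0.21) on the log2 scale in KO lines and by -2.81 (SE 0.20) in control lines. SLC4A5 changed by -5.30 (SE 0.49) in KO lines and by -2.48 (SE 0.43) in control lines. ENSG00000276727 changed by -3.29 (SE 0.45) in KO lines and by -1.04 (SE 0.41) in control lines, and the second of these calls was lost in 17 of 22 alternatives. The row VLDLR-AS1 was at -0.72 (SE 0.67) in KO and 0.58 (SE 0.66) in control lines and passed the threshold in neither.

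Of the coding names other than MTHFD2, ATF5 fell by 1.14 (SE 0.22) on the log2 scale in KO lines and by 0.58 (SE 0.22) in control lines. The control call was lost in 17 of 22 alternatives, RLE scaling among them. VLDLR fell by 2.22 (SE 0.47) in KO lines, and its value in control lines, -1.01 (SE 0.46), did not pass. SLC1A5 fell by 1.62 (SE 0.42) in KO lines, and its value in control lines was -0.43 (SE 0.41). SHMT2 was at -1.24 (SE 1.00) in KO lines, which did not pass, and rose by 2.61 (SE 1.07) in control lines, a call kept in 8 of 21 alternatives.

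**Figure D4:**
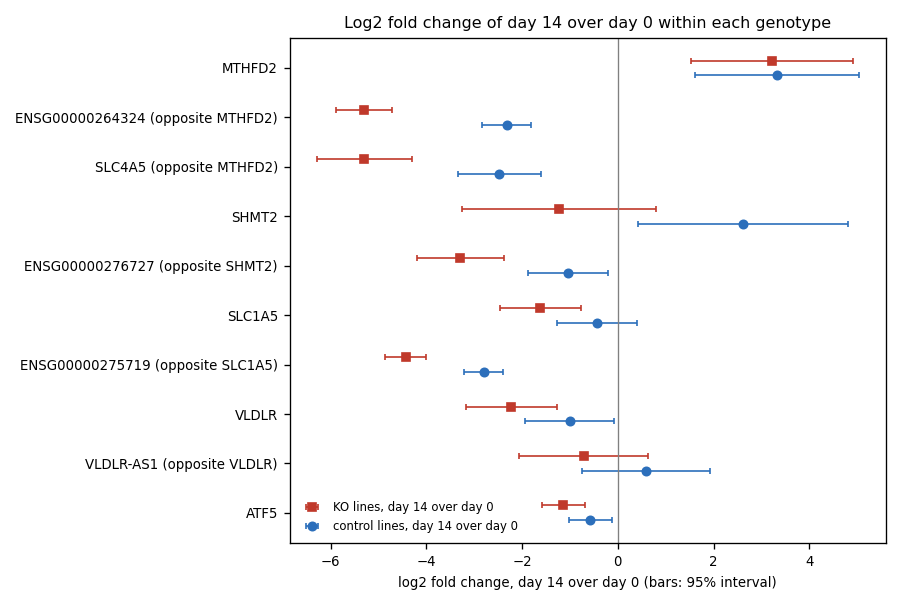
Log2 fold change of day 14 over day 0 (horizontal axis) for each of the 10 rows in KO lines (squares) and control lines (circles), with bars for the 95% interval of the fit. MTHFD2 lies at 3.22 in KO and 3.32 in control lines, and ENSG00000264324 opposite it at -5.30 in KO and -2.33 in control lines.

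Lines of the same genotype were compared as a background between lines, in a contrast that the choice of rows did not use. Between the 2 KO lines at day 14 none of the 10 rows passed the edgeR test, 2 had an unadjusted p below 0.05 and 0 were called by DESeq2, beside 0.827% of 15000 features that were higher and 0.4% that were lower in KO line 2. MTHFD2 averaged 54.3 ± 10.8 CPM in KO line 2 and 28.6 ± 7.81 CPM in KO line 1 (SD, n = 3 each). Its log2 difference of 0.85 had an interval from 0.26 to 1.45 and an adjusted p of 0.19 by edgeR. ENSG00000275719 averaged 87.2 ± 17.1 CPM in KO line 2 and 57.8 ± 15.2 CPM in KO line 1, a log2 difference of 0.55 with an adjusted p of 0.233 by edgeR. BRAT1 itself differed by 2.7 between these lines, with an adjusted p of 1.09e-09 by edgeR. Between the 2 control lines none of the 10 rows passed either, 0 had an unadjusted p below 0.05 and 0 were called by DESeq2, beside 0.0933% of features that were higher and 0.0133% that were lower in control line 2. The widest values between the control lines were -1.17 (SE 0.99) for SHMT2 and 0.51 (SE 0.36) for VLDLR-AS1.

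ENSG00000264324 averaged 18.5 ± 6.69 CPM in KO line 1 and 19.2 ± 3.69 CPM in KO line 2, against 146 ± 27.6 CPM in control line 1 and 116 ± 40.2 CPM in control line 2 at day 14 (SD, n = 3 each). The log2 difference between lines was 0.01 (SE 0.30) for KO line 2 over KO line 1 and -0.33 (SE 0.27) for control line 2 over control line 1. With counts summed per line, 2 lines against 2, its log2 fold change at day 14 was -2.94.

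The rows most like ENSG00000264324 over the 24 libraries were sought among 10971 rows, by the root mean square difference of log2(CPM + 1) after each row was centred on its own mean. PHLDA1-AS1, whose exons lie opposite PHLDA1, was nearest at 0.51, followed by ENSG00000289502 at 0.62, ENSG00000286037 at 0.63, ENSG00000256482, with 82 exon bases opposite BCAT1, at 0.66 and ENSG00000274021, opposite DUSP6, at 0.68. The median over all rows was 2.77. PHLDA1-AS1 averaged 28.2 ± 6.85 CPM in KO and 218 ± 34.0 CPM in control lines at day 14, against 860 ± 364 CPM in KO and 754 ± 129 CPM in control lines at day 0 (SD, n = 6 each). Among the other 9 rows the nearest were ENSG00000275719 at 0.74 and SLC4A5 at 0.78, and the farthest was MTHFD2 at 3.86.

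The remaining genes of the pathways were read from lists, counting the row under a gene's own name and the row opposite it apart. Their counts at day 14 stand beside 11% of all features tested that were higher and 10.7% that were lower in KO lines. Of the folate and one-carbon list, 16 of 29 own-name rows could be tested at day 14, and 4 were higher and 2 lower in KO lines, with a median log2 fold change of 0.44 beside 0.07 over all features. Of its 9 tested opposite rows, 0 were higher and 1 was lower, with a median of -0.34. SLC46A1, the proton-coupled folate transporter, averaged 805 ± 184 CPM in KO and 453 ± 75.2 CPM in control lines, a log2 fold change of 0.82 (adjusted p = 0.000101, edgeR). SLC19A1, the reduced folate carrier, averaged 189.9 ± 98.5 CPM in KO and 688 ± 167 CPM in control lines, a log2 fold change of -1.88 (adjusted p = 0.00145, edgeR). DLD, the dehydrogenase shared by the glycine cleavage system and other mitochondrial complexes, averaged 10.1 ± 6.41 CPM in KO and 128 ± 32.2 CPM in control lines, a log2 fold change of -3.67 (adjusted p = 0.000314, edgeR). Exons of SARM1 lie opposite SLC46A1, exons of COL18A1 opposite SLC19A1 and 70 exon bases of LAMB1 opposite DLD, so the RNA counted under these names cannot be told apart from the opposite one.

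The serine and proline list had 0 higher and 1 lower of 7 tested own-name rows in KO lines, and 1 lower of 1 opposite row. The opposite row was ENSG00000263585, opposite PYCR1, which encodes an enzyme of proline synthesis, with 71.6 ± 17.5 CPM in KO and 208 ± 58.6 CPM in control lines and a log2 fold change of -1.56 (adjusted p = 1.24e-07, edgeR). PCK2, mitochondrial phosphoenolpyruvate carboxykinase, averaged 1.64 ± 1.42 CPM in KO and 10.1 ± 4.03 CPM in control lines, a log2 fold change of -2.60 (adjusted p = 0.00161, edgeR). Of the amino acid transporters, 1 was higher and 0 lower of 7 own-name rows, and both tested opposite rows were lower. SLC38A2, a glutamine and alanine carrier, averaged 12.5 ± 5.21 CPM in KO and 3.39 ± 2.14 CPM in control lines, a log2 fold change of 1.80 (adjusted p = 0.00355, edgeR). ENSG00000260466, opposite the large neutral amino acid transporter gene SLC7A5, averaged 3.6 ± 4.68 CPM in KO and 15.9 ± 2.64 CPM in control lines, a log2 fold change of -2.15 (adjusted p = 0.00632, edgeR). CCDC24, opposite the glycine transporter gene SLC6A9, had a log2 fold change of -1.78 (adjusted p = 0.00334, edgeR).

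ATF4 itself averaged 118 ± 50.8 CPM in KO and 130.0 ± 31.1 CPM in control lines at day 14 (SD, n = 6 each). Its log2 fold change was -0.17, with an interval from -0.61 to 0.26 and an adjusted p of 0.606 by edgeR. Of the 11 tested own-name rows of the stress response list that holds it, 2 were higher and 1 was lower in KO lines, and of 4 opposite rows 1 was higher and 1 lower. EIF2AK4, the kinase that senses uncharged tRNA, averaged 49.0 ± 10.8 CPM in KO and 24.5 ± 5.44 CPM in control lines, a log2 fold change of 0.99 (adjusted p = 0.0016, edgeR). ENSG00000225420, opposite the endoplasmic reticulum stress kinase gene EIF2AK3, had a log2 fold change of -0.73 (adjusted p = 0.000271, edgeR), and AIMP2, opposite the kinase gene EIF2AK1, one of 0.83 (adjusted p = 0.00146, edgeR). Aminoacyl-tRNA synthetases, which charge tRNAs with amino acids, had 0 higher and 1 lower of 14 own-name rows, and 1 higher and 4 lower of 7 opposite rows. Among these opposite rows, ARHGAP9, opposite MARS1, changed by -2.88 (adjusted p = 0.000284, edgeR). HARS2, opposite and closely related to HARS1, changed by 2.47 (adjusted p = 0.00311, edgeR), and reads may be split between these similar genes.

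Of the low density lipoprotein receptor family with reelin, 3 of 6 tested own-name rows were higher and 1 was lower in KO lines, and of 5 opposite rows 0 were higher and 1 was lower. RELN, the ligand of VLDLR, averaged 10.2 ± 5.39 CPM in KO and 0.788 ± 1.37 CPM in control lines, a log2 fold change of 3.6 (adjusted p = 0.000488, edgeR). LRP2, an endocytic receptor of the same family, averaged 32.4 ± 11.9 CPM in KO and 11.3 ± 3.73 CPM in control lines, a log2 fold change of 1.49 (adjusted p = 0.000344, edgeR). LRP4-AS1, opposite LRP4, changed by -1.29 (adjusted p = 0.00131, edgeR). At day 0 none of the 47 tested rows of these 6 lists passed the edgeR test, 2 had an unadjusted p below 0.05, and 0 were called by DESeq2.

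Between day 14 and day 0, the opposite rows of the folate list were mostly lower: 6 of 10 were lower and 0 higher in KO lines, beside 16.5% of all features that were lower and 29.8% that were higher. In control lines 7 were lower and 0 higher, beside 14.4% of all features that were lower and 28.4% that were higher. Their median log2 change was -1.30 in KO and -1.55 in control lines, beside medians over all features of 0.65 in KO and 0.60 in control lines. The fall was not particular to this list. Opposite rows had medians of -1.78 in KO and -1.35 in control lines for the synthetases, and -1.67 and -0.95 for the stress response list. They were -1.32 in KO and 0.68 in control lines for amino acid transporters, and -0.23 and 0.31 for the lipoprotein receptor list. The 1 row of the serine and proline list changed by -3.60 and -1.76. The own-name rows of the folate list had 4 higher and 6 lower of 16 in KO lines, and 3 higher and 2 lower in control lines. MTHFD1, the cytosolic enzyme that uses the formate, also rose, with 202 ± 22.1 CPM at day 14 and 28.5 ± 10.1 CPM at day 0 in control lines (SD, n = 6 each). Its log2 change in control lines was 2.29 (adjusted p = 2.21e-05, edgeR). ENSG00000258824, with 101 exon bases opposite MTHFD1, moved the other way in both genotypes. It changed by -2.50 in KO lines (adjusted p = 9.61e-08, edgeR) and by -2.28 in control lines (adjusted p = 5.5e-07, edgeR). Exons of AL122035.2 lie opposite MTHFD1 over 756 bases. The RNA counted under the name MTHFD1 therefore cannot be told apart from the opposite one. The part of the shift towards coding names over the 683 pairs in these changes was not tested.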

How the data were processed

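RNA was selected for poly(A) tails and made into Click-Seq libraries, which join the adapter by click chemistry, per the labels' protocols. The authors deposited 1 table of raw counts for each of 24 libraries, with 61248 features. The submitters' processing notes name bcl2fastq 2.20.0, STAR 2.7.9a, featureCounts of Subread 2.0.1, DESeq2 1.34.0, R 3.5.1 and GRCh38; neither the annotation release nor the strand setting is given there. GENCODE release 29 matched 57015 features by name and gave the positions and overlaps. An opposite row counted with a gene list needed at least 100 exon bases of overlap, at least 90% of it with 1 gene; elsewhere a shorter overlap is given with its length.

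The edgeR 4.0.16 quasi-likelihood test was run on the counts under R 4.3.3 with TMM scaling, filterByExpr and robust fits, with Benjamini-Hochberg adjustment over all features tested. No term for line was fitted, so the p-values count the 3 libraries of each line as separate samples although a genotype has 2 lines. Scripts were tested on simulated data. Alternatives were rows summed by locus, RLE scaling, no filter, DESeq2 1.42.0, counts summed per line, a replicate block, other sets of libraries and leaving out each library or line. The 10 rows and the gene lists were chosen with earlier results of these data known. Of each list and comparison, up to 3 rows past the threshold, with the smallest adjusted p, were eligible to be named. No 2 libraries of a line agreed within sampling noise.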

Additional observations from a re-analysis of the deposited data

Results flagged for a closer look

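Of 40 groups of 6 libraries examined, 8 had 1 library far from the other 5, by a gap above the 95% critical value of Dixon's test. By chance that value flags about 1 in 20 groups where values are normally spread, which CPM from few counts need not be. The 8 groups are therefore not set against that rate. MTHFD2 stood at 14.5 CPM in replicate C of KO line 2 and at 11.1 CPM in replicate C of control line 2 at day 0, where the next libraries had 2.37 CPM in KO and 2.13 CPM in control lines. SHMT2 stood at 10.7 CPM in replicate C of KO line 1 and at 32.9 CPM in replicate C of control line 1 at day 14, where the next libraries had 2.92 CPM in KO and 11.5 CPM in control lines. Without replicate C of KO line 1 the log2 fold change of SHMT2 at day 14 was -3.0, and without replicate C of control line 1 it was -1.30, against -1.95 with all libraries. SLC4A5 stood at 215 CPM in replicate A of KO line 1 at day 0. ATF5 stood at 248 CPM in replicate C of KO line 2 at day 0 and, on the low side, at 97.2 CPM in replicate A of control line 1 at day 14. SLC1A5 stood at 13.1 CPM in replicate C of control line 2 at day 0, below its group.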

How the results depend on the processing

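At day 14 the 5 opposite-strand rows were lower in KO than in control lines under all 24 alternatives. ENSG00000264324, ENSG00000275719 and ENSG00000276727 stayed past the threshold in each. The comparison was in view when the rows were chosen, so these calls are no independent evidence. The alternative with the rows of a locus summed gives every row of a locus the same value. SLC4A5 lost its call with the own-name percent as a term and VLDLR-AS1 with all 24 libraries in 1 fit, while ATF5 lost its call in 15 of 24. The MTHFD2 value turned to -1.53 with the rows of a locus summed, -0.053 with counts summed per line, -0.035 with the own-name percent as a term and -0.43 without KO line 2, and ranged from -0.061 to 0.197 over left-out libraries. The day 14 count of 2474 features was 241 with all 24 libraries in 1 fit, 1459 with the own-name percent, 1552 without control line 1, 1266 without control line 2 and 2113 to 2551 over left-out libraries. The causes were not tested. The replicate letters were not taken to pair the libraries, since some same-letter correlations were at or under 0.1: same-letter deviations correlated at -0.22 to 0.13 at day 14 and 0.08 to 0.30 at day 0, where 14 of 18 same-letter pairs and 0 of 36 other pairs were over 0.1 and 12 of 12 libraries correlated best with their own letter, a hint from the data. With the replicate block, 2256 features and 6 of the 10 rows, SHMT2 in place of ATF5, were called at day 14, and 0 features at day 0.

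At day 0 the count of 0 became 13 without a filter, 116 with all 24 libraries in 1 fit, 1 with counts summed per line and 1 without control line 1, and it was 0 over all left-out libraries. None of the 10 rows was called at day 0 under any of the 23 alternatives. VLDLR-AS1 was 0.47 with the locus summed, 0.198 without KO line 1 and 1.04 without control line 1. ENSG00000264324 was -0.068 without control line 2. Over left-out libraries the range was -0.058 to 0.49 for ENSG00000276727 and -0.061 to 0.22 for ATF5. Between KO lines the count of 184 was 338 by DESeq2 and 109 to 289 over left-out libraries, and SHMT2 was 0.12 with the locus summed. Between control lines the count of 16 was 42 without a filter and 10 to 15 over left-out libraries.

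For day 14 against day 0, DESeq2 called 8911 features in KO and 7306 in control lines, and 8739 were called in KO lines without a filter. In control lines the 5 lower rows became 3 by DESeq2, with RLE scaling and without a filter, and 3 to 5 over left-out libraries, and 3 without 1 control line, except 4 without control line 1 at day 0. The 2 higher rows became 1 with control libraries only, 1 without any 1 control line, and 1 to 2 over left-out libraries. With loci summed MTHFD2 was -3.81 in KO and -2.01 in control lines, SHMT2 was -0.66 in control lines and VLDLR-AS1 -0.36 in control lines, where VLDLR-AS1 was -0.063 without control line 2 at day 0. The call of SLC1A5 in KO lines was lost without KO line 1 at either day. For the change of the KO effect between days, 161 features became 564 by DESeq2, 792 without a filter and 91 to 259 over left-out libraries. Without 1 line at day 14 that count was 14 and 63 for KO lines 1 and 2 and 32 and 19 for control lines 1 and 2, and without control line 1 at day 0 it was 365. The 4 rows became 1 without KO line 1 at day 14 and 2 without KO line 2, control line 1 or control line 2 at day 14. Depth limits the day 0 rows of MTHFD2, SHMT2 and VLDLR-AS1.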
